A study of Mus musculus with 8 samples.

Results

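The genes described here are those of the cytosolic ribosome, taken by name from mouse heart RNA sequencing after ischemia-reperfusion, in which blood flow to the heart is interrupted and then restored. A gene was a member if its symbol began with Rpl or Rps and a digit, or with Rplp and a digit, with the S6 kinases and symbols marked as pseudogenes left out. The rule found 86 members among 16547 genes with values in every library, and 84 of them were among the 13953 genes with enough counts for a test. The other two, Rpl39l and Rps27rt, are described by their levels only. The name rule used no measured value. It takes in Rps19bp1, which encodes a protein that binds Rps19 and is not part of the ribosome, and it misses genes such as Rpsa, Fau and Rack1, whose products are ribosomal but whose names differ.

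Hearts of mice with ischemia-reperfusion were compared in 4 groups with 2 libraries each, 8 in all. The tested groups had received the protein nanocages iFTn-MR4, iFTn-R4 or iFTn-M4, which the title of the series describes as nanozymes made to scavenge superoxide in cells, and the fourth group had received PBS, the saline buffer. Each was given as 2 doses on alternate days, at a protein concentration equivalent to 2.5 mg/kg, and RNA was taken from the cardiac tissue after 3 days. All groups, PBS included, had ischemia-reperfusion, so no uninjured heart enters any comparison, and strain, sex and age are not given in the labels. Nothing in the labels says that the 2 libraries of a group came from separate animals, and the p-values below speak for the variation among these 8 libraries alone. In whole-tissue RNA, fewer cells of a type and less RNA per cell cannot be told apart.

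The ribosome is built from a small subunit, which reads the messenger RNA, and a large subunit, which joins amino acids. A flexible stalk on the large subunit recruits the elongation factors. The messenger RNAs of these proteins usually begin with an uninterrupted run of pyrimidines, the 5′ terminal oligopyrimidine or TOP element, through which their translation follows the growth signal of the mTORC1 kinase. In the heart, making ribosomes is part of muscle cell growth, and striated muscle also has its own version of one large-subunit protein, Rpl3l, in place of the common Rpl3.

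Total expected counts were 13618588 to 15729385 per library. The PBS libraries stand in a table of their own and the 6 nanocage libraries in another, so a difference between tables and the effect of a nanocage against PBS cannot be told apart. Against PBS, log2 fold change rose with gene length over all 13953 genes, with a Spearman correlation of 0.35 for iFTn-MR4, 0.50 for iFTn-R4 and 0.39 for iFTn-M4. Between nanocages it was 0.04 for iFTn-MR4 against iFTn-R4, 0.07 for iFTn-MR4 against iFTn-M4 and 0.01 for iFTn-R4 against iFTn-M4. Ribosomal protein messages are short: the median effective length, the number of places a fragment can start, was 402 bases for the 84 members and 2648 bases for all genes tested. Each comparison is therefore given without and with a correction that takes the common length trend out of every library, and what the trend itself came from was not tested.

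Ribosomal protein genes were among the most abundant in the heart. Of the 86, 54 averaged over 1000 TPM and 10 averaged under 200 TPM, with a median of 1247. TPM is a level per transcript length, so it may be compared between genes, but the 2 tables were normalised separately. Rps27 and Rps15, both small-subunit proteins, had the highest mean TPM. The lowest 3 were Rpl39l, a copy best known from testis, and the retro-copies Rpl37rt and Rps27rt. Together the members held 2.47% and 2.43% of the counts in the iFTn-MR4 libraries, 3.03% in both iFTn-R4 libraries, 2.90% and 2.71% in iFTn-M4, and 3.40% and 3.47% in PBS. These shares did not overlap between any pair of groups. For 11 members, counts were split among near-identical copies, among them Rpl23, Rpl27, Rpl31, Rpl34, Rpl37, Rpl37rt, Rplp2, Rps27, Rps27rt and Rps6, and their values are uncertain.

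The start of the message is shown for a few members, because the TOP element sits there. The RefSeq promoter table of GRCm38.p6 held 66 of the 86 members. Each line gives the 25 bases before the annotated start and the 25 from it on, 5′ to 3′ on the strand of the gene, with the longest run of C and T in capitals.
Rps12: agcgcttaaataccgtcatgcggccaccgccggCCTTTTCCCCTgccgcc
Rpl18: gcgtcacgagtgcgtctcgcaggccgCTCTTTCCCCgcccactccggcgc
Rpl22l1: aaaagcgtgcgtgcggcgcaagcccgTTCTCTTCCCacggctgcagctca
Rpl13a: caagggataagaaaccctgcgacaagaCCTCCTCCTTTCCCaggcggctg
Rpl38: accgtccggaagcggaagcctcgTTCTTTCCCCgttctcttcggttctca
Rpl3l: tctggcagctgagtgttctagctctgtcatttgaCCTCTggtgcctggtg
Rps12 is from chr10:23787185-23787234 on the minus strand and Rpl18 is from chr7:45718046-45718095 on the plus strand. Rpl22l1 is from chr3:28805483-28805532 on the plus strand and Rpl13a is from chr7:45128721-45128770 on the minus strand. Rpl38 is from chr11:114668555-114668604 on the plus strand and Rpl3l is from chr17:24727801-24727850 on the plus strand.
Rps12, Rpl18 and Rpl22l1 are members that were lower with iFTn-MR4, Rpl38 is a member that was not, and Rpl13a shows a long run. Rpl3l, which ran opposite to most other members with iFTn-MR4, has a run of 5 in the printed bases. It has a run of 9 within 50 bases either side of the start. Short runs also occurred among lower members not printed. In the same windows Rps16 has runs of 5 and 9, Rpl36al 5 and 10, Rpl12 7 and 8, and Rpl10a 7 and 7. A run of at least 8 pyrimidines within 50 bases either side of the start was found for 51 of 66 members (77.3%), against 35.7% of 32851 promoters in the table. A single start was taken per member, while the 32851 were all entries, with no chromosome left out. The letters CCGGAAG, which ETS factors can bind, were within 250 bases upstream on either strand in 27.3% of the members and 6.91% of all promoters. These matches describe the letters and say nothing of what bound there. Whether a marked run is a TOP element, or bears on the levels, was not tested.

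With iFTn-MR4, most ribosomal protein genes were lower than with PBS, while Rpl3l was higher. Of 84 members tested, 73 were called lower at an adjusted p under 0.05, where 26.3% of all genes tested were called lower, and 1 was called higher, where 24.6% of all genes were. The median log2 fold change was -0.48 for the members and 0.00 for all genes. With the length correction the count fell to 41 called lower, against 23.9% of all genes, and 1 higher, against 20.7%, with a median of -0.23. The 41 were all among the 73. Without regard to any test, the CPM of the iFTn-MR4 libraries lay below both PBS libraries for 78 members, against 39.9% of all genes, and above them for 1, against 39.3%. Leaving out iFTn-MR4 replicate 1 brought the corrected count to 22 and leaving out iFTn-MR4 replicate 2 brought it to 26. On the TPM scale the median of all genes moved to 0.11, 66 members were called lower and 1 higher, and 62.7% of all calls were in the higher direction in place of 48.3%.

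**Figure D1:**
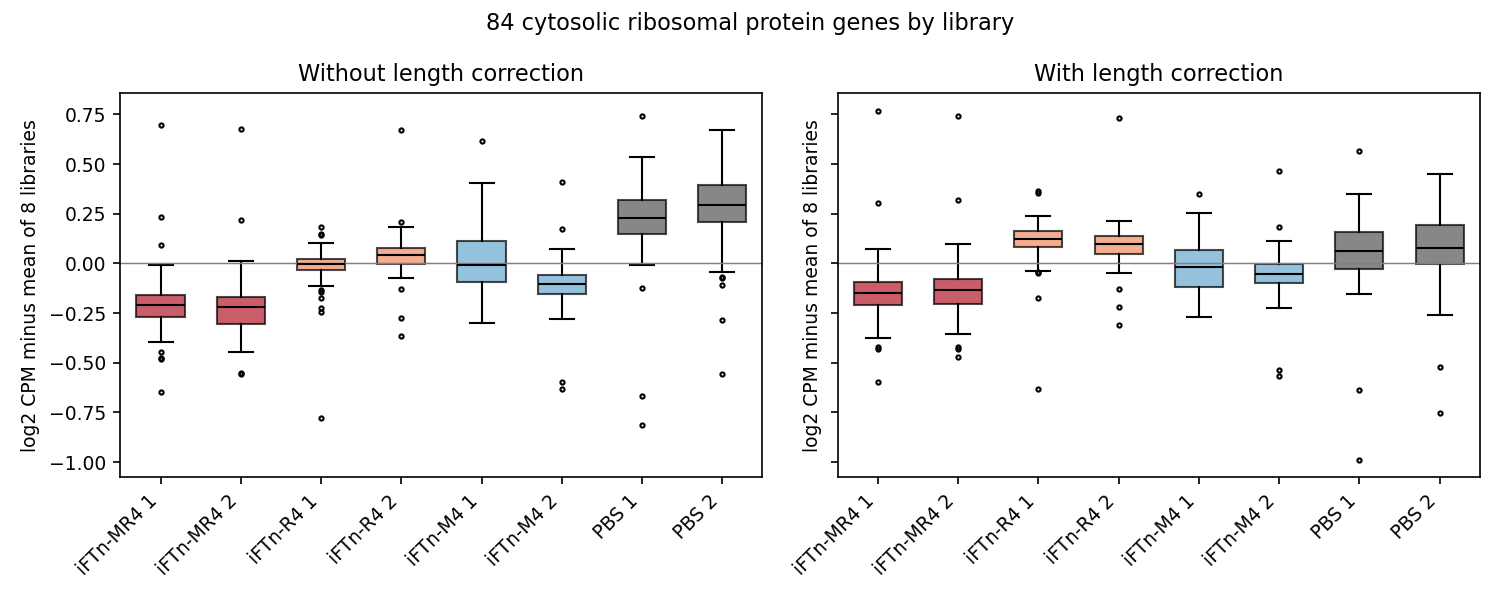
Box plots of the 84 tested members in each of the 8 libraries, as log2 CPM minus the mean of the gene over the 8 libraries, without (left) and with (right) the length correction. Boxes give quartiles, lines medians, and dots members beyond the whiskers. Uncorrected medians were -0.21 and -0.22 in iFTn-MR4 and 0.23 and 0.29 in PBS, and corrected medians were -0.15 and -0.13 in iFTn-MR4 and 0.06 and 0.08 in PBS.

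Before the length correction, most genes of both subunits were called lower. Of 31 small-subunit genes, 26 were lower with iFTn-MR4 than with PBS, where 26.3% of all genes were, with a median log2 fold change of -0.41. After the correction 11 remained called, where 23.9% of all genes were, with a median of -0.13. Of 49 large-subunit genes outside the stalk, 43 were lower, with a median of -0.53, and 28 were called after the correction, with a median of -0.26. Rps16, whose product reaches the tRNA site of the small subunit, had 142 and 147 CPM with iFTn-MR4, 198 and 194 with iFTn-R4, 200.4 and 174 with iFTn-M4, and 283 and 301 with PBS. Both iFTn-MR4 libraries lay below all others, and the PBS libraries lay above all others. Its log2 fold change with iFTn-MR4 was -1.02 ± 0.09 (standard error of the model, 2 libraries each, edgeR adjusted p = 2.33e-05) and -0.73 ± 0.08 after the correction (adjusted p = 1.15e-04).

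Among the large-subunit genes, Rpl12, a neighbour of the stalk base, had 361 and 377 CPM with iFTn-MR4, 454 and 461 with iFTn-R4, 440.0 and 395 with iFTn-M4, and 632 and 684 with PBS. The iFTn-MR4 libraries were the lowest and the PBS libraries the highest. Its log2 fold change with iFTn-MR4 was -0.83 ± 0.09 (edgeR adjusted p = 6.46e-05) and -0.54 ± 0.08 after the correction. Rpl10a, a protein of the mobile L1 arm of the large subunit, had 204 and 206 CPM with iFTn-MR4, 245 and 249 with iFTn-R4, 223 and 225 with iFTn-M4, and 321 and 319 with PBS. Its log2 fold change was -0.64 ± 0.07 (edgeR adjusted p = 8.08e-05) and -0.35 ± 0.07 after the correction. Rpl36al, an expressed near-copy of Rpl36a, had a log2 fold change of -0.89 ± 0.08 (edgeR adjusted p = 4.03e-05), and its partner Rpl36a had -0.53 ± 0.11.

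All 3 stalk genes were lower with iFTn-MR4, and 1 after the length correction. Rplp0, the base of the stalk and a gene often taken as a loading reference, had 1229 and 1186 CPM with iFTn-MR4, 1302 and 1310.2 with iFTn-R4, 1222 and 1296 with iFTn-M4, and 1442 and 1538 with PBS. With iFTn-MR4 its log2 fold change was -0.30 ± 0.08 (edgeR adjusted p = 0.0133), and with the length correction it was -0.05 ± 0.08 and did not pass (adjusted p = 0.665). Rplp1 and Rplp2, the acidic stalk proteins, had log2 fold changes of -0.40 ± 0.11 and -0.57 ± 0.09. After the correction only Rplp2, whose counts are partly split, remained below the threshold, at -0.35 ± 0.08 (edgeR adjusted p = 0.00846).

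The 10 members that did not pass with iFTn-MR4 against PBS were Rpl22, Rpl28, Rpl37a, Rpl37rt, Rpl38, Rps14, Rps21, Rps27, Rps29 and Rps3a1. Rps14, a small-subunit protein, had 451 and 441 CPM with iFTn-MR4, 477 and 489 with iFTn-R4, 478 and 462 with iFTn-M4, and 481 and 495 with PBS. The iFTn-MR4 libraries were the lowest of the 8, but the groups lay close together. Its log2 fold change against PBS was -0.13 ± 0.07 (edgeR adjusted p = 0.162), and 0.15 ± 0.07 after the correction (adjusted p = 0.116). Rps15, one of the most abundant members, was called lower, at -0.35 ± 0.08, but did not pass after the correction, at -0.09 ± 0.09 (edgeR adjusted p = 0.433).

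With iFTn-R4, the lower level of ribosomal protein genes against PBS was largely gone after the length correction. Of the 84, 36 were called lower, where 15.4% of all genes were, and 1 higher, where 13.9% of all genes were, with a median log2 fold change of -0.22. After the correction 2 were called lower, against 7.9% of all genes, and 5 higher, against 6.08%, and the median was 0.05. Only 1 member was called lower both ways, Rpl7l1, which was -0.45 ± 0.10 and corrected -0.38 ± 0.10 (edgeR adjusted p = 0.0297). Rps15a, with a long effective length of 4824 bases, was called lower only after the correction, at -0.35 ± 0.08 (edgeR adjusted p = 0.0241). Corrected, Rpl3l, Rpl38, Rps14, Rpl28 and Rpl37a were the 5 higher. The iFTn-R4 libraries lay below both PBS libraries for 69 members, against 32.8% of all genes, and above them for 2, against 31.8%. Without PBS replicate 2 the uncorrected count of lower members was 12. Corrected, it was 0 without PBS replicate 2 and 5 without iFTn-R4 replicate 1, and the count of higher members was 1 to 3 with any single library left out. Scaling by library size alone put 61.3% of all calls in the higher direction in place of 47.5%, and the TPM scale put 87.2% there and moved the median of all genes to 0.20, with 9 members lower.

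The genes with the lowest adjusted p in that comparison were Rps16, Rpl12, Rpl36al, Rpl13 and Rpl18. Rpl13, a large-subunit protein, had 512 and 510.4 CPM with iFTn-MR4, 589 and 568 with iFTn-R4, 514 and 542 with iFTn-M4, and 778 and 816 with PBS. With iFTn-R4 the log2 fold change was -0.46 ± 0.08 (edgeR adjusted p = 0.0031) and -0.14 ± 0.08 after the correction (adjusted p = 0.266). Rpl18, also of the large subunit, gave -0.43 ± 0.07 and, corrected, -0.11 ± 0.07. Rps16 gave -0.58 ± 0.08 and, corrected, -0.26 ± 0.08 (adjusted p = 0.054), Rpl12 gave -0.53 ± 0.09 and -0.21 ± 0.08, and Rpl36al gave -0.49 ± 0.08 and -0.20 ± 0.10. None of these 5 passed the threshold after the correction.

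With iFTn-M4, 57 of 84 members were called lower than with PBS, where 21.4% of all genes were, and 3 higher, where 19.8% were. The median log2 fold change was -0.33, and the iFTn-M4 libraries lay below both PBS libraries for 66 members, against 37.3% of all genes, and above them for 4, against 37.3%. The correction left 26 lower, against 17.7% of all genes, and 5 higher, against 15.2%, with a median of -0.10. The count depended on single libraries: without iFTn-M4 replicate 2 it was 30 and without PBS replicate 2 it was 33, and the corrected count fell to 7 without PBS replicate 2, to 10 without iFTn-M4 replicate 1 and to 11 without either iFTn-M4 replicate 2 or PBS replicate 1. On the TPM scale 42 members were lower, 70.6% of all calls were in the higher direction in place of 48.1%, and the median of all genes was 0.14. Rpl8, a large-subunit protein close to the peptidyl transferase centre, had 407 and 403 CPM with iFTn-MR4, 458 and 439.5 with iFTn-R4, 379 and 412 with iFTn-M4, and 598 and 609 with PBS. With iFTn-M4 the log2 fold change was -0.61 ± 0.08 (edgeR adjusted p = 3.53e-04) and -0.35 ± 0.08 after the correction (adjusted p = 0.0103). Rpl12, Rpl13 and Rpl36al were lower too, with log2 fold changes of -0.66 ± 0.09, -0.59 ± 0.08 and -0.66 ± 0.08.

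The members called higher with iFTn-M4 were Rpl3l, Rpl38 and Rps27. Rpl38, a small large-subunit protein known in mice for its part in translating homeobox messages, had 52.9 and 52.5 CPM with iFTn-MR4, 67.1 and 70.0 with iFTn-R4, 92.8 and 68.4 with iFTn-M4, and 38.2 and 57.8 with PBS. The iFTn-M4 and PBS libraries did not overlap, but the PBS libraries were far apart, with 604 and 874 expected counts. In iFTn-M4 against PBS the log2 fold change was 0.75 ± 0.18 (edgeR adjusted p = 0.00918) and 0.60 ± 0.16 after the correction. The effective length of Rpl38 is 41 bases, the shortest of the members. The 5 tested members with an effective length under 100 bases (Rpl38, Rps21, Rps27, Rps28 and Rps29) lay at the far left of the length range. Rps27, with split counts, gave 0.31 ± 0.11 (edgeR adjusted p = 0.049).

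**Figure D2:**
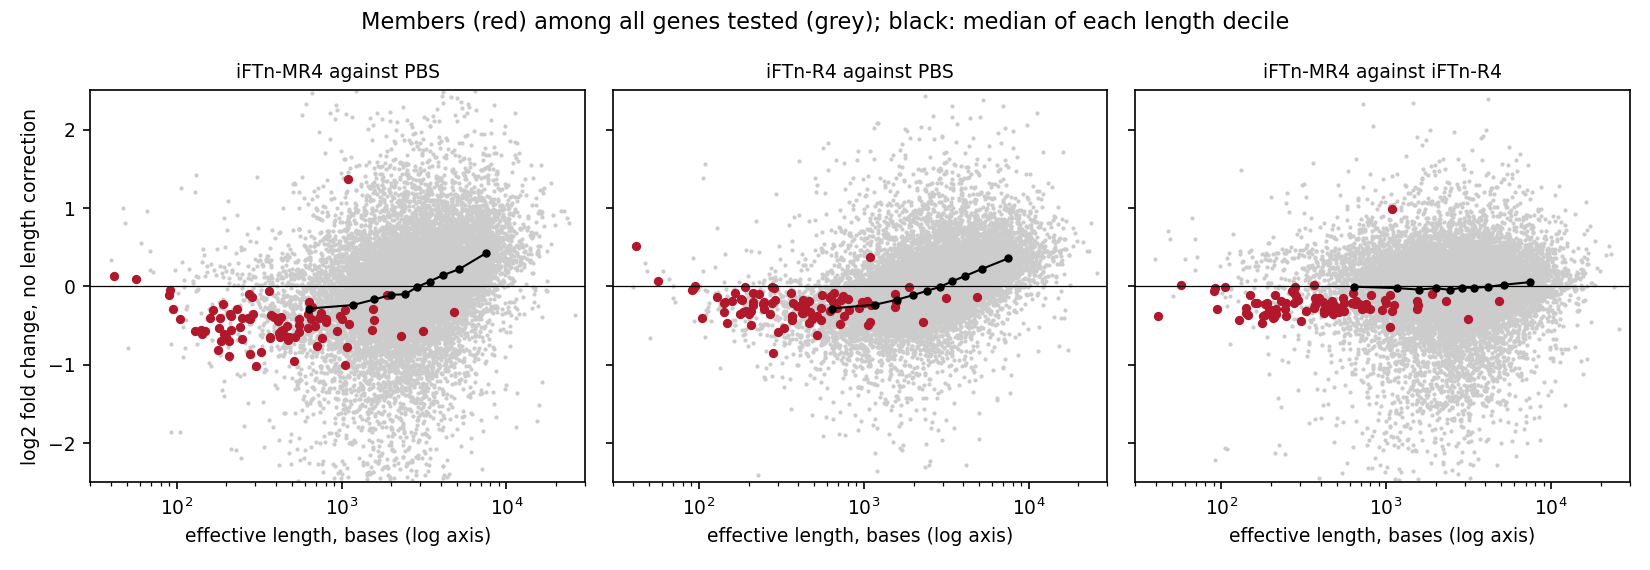
Log2 fold change against effective length (log axis, bases) for all 13953 genes (grey, those within 2.5 of 0 shown) and the members (red), without the length correction, in iFTn-MR4 against PBS, iFTn-R4 against PBS and iFTn-MR4 against iFTn-R4. Black points are the medians of length deciles. The median effective length is 402 bases for the members and 2648 for all genes; against PBS the black line climbs with length and between the 2 nanocages it is nearly flat.

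The comparison of iFTn-MR4 with iFTn-R4 lies within a single table and has little length trend, and it separated the ribosomal protein genes in both fits. Of 84 members, 31 were called lower with iFTn-MR4, where 14.6% of all genes were, and 1 higher, where 12.6% were. After the correction 41 were lower, against 14.8% of all genes, and 1 higher, against 12.9%, and 28 were lower in both fits. The median log2 fold change was -0.23, and -0.24 after the correction, against medians of -0.01 for all genes in both. The iFTn-MR4 libraries lay below both iFTn-R4 libraries for 71 members, against 32.6% of all genes, and above them for 1, against 31.5%. Leaving out iFTn-MR4 replicate 1 brought the count to 11 and leaving out iFTn-MR4 replicate 2 to 5, with medians of -0.25 and -0.23, and the corrected count to 14 and 13. The corrected count was 26 without iFTn-R4 replicate 1. Scaling by library size alone moved the median of all genes to -0.10 and gave 62 members lower, with 28.7% of all calls in the higher direction in place of 46.3%. The TPM scale also gave 62, with a median of all genes of -0.10.

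Rps12, Rps19 and Rpl34 were among the members with the lowest adjusted p there. Rps12, a small-subunit protein, had 256 and 237 CPM with iFTn-MR4, 321 and 322 with iFTn-R4, 291 and 299 with iFTn-M4, and 389 and 411 with PBS. For iFTn-MR4 against iFTn-R4 this gave a log2 fold change of -0.38 ± 0.08 (edgeR adjusted p = 0.00635) and -0.42 ± 0.08 after the correction. Rps19, the small-subunit protein that is mutated in many cases of Diamond-Blackfan anaemia in humans, had 184 and 180.0 CPM with iFTn-MR4, 232 and 239 with iFTn-R4, 213 and 216 with iFTn-M4, and 276 and 302 with PBS. Its log2 fold change was -0.37 ± 0.08 (edgeR adjusted p = 0.00668) and -0.40 ± 0.08 after the correction. Rpl34, with split counts, gave -0.36 ± 0.08 and, corrected, -0.40 ± 0.08.

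Between iFTn-MR4 and iFTn-M4 no member passed the threshold in edgeR's quasi-likelihood test, where 0.344% of all genes were called lower and 0.0215% higher, or 0.28% and 0.0215% after the correction. At an unadjusted p under 0.05 in that test, 29 members were lower and 1 was higher. Of all 13953 genes, 1416 (10.1%) were lower and 1090 higher. DESeq2 called 4 members lower and 1 higher at its adjusted threshold, where 271 and 82 of all genes were. The median log2 fold change of the members was -0.16, and -0.11 after the correction, with 78 of 84 below 0. The iFTn-MR4 libraries lay below both iFTn-M4 libraries for 65 members, against 27.7% of all genes, and above them for 1, against 26.6%. Between iFTn-R4 and iFTn-M4 the single call was Rpl3l, lower with iFTn-R4, where 2.5% of all genes were called lower and 3.43% higher, or 2.55% and 3.45% after the correction. The median was 0.08, and 0.15 after the correction, with iFTn-R4 higher. Of all calls 57.8% were in the higher direction, against 71.2% with scaling by library size alone and 78.1% on the TPM scale.

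**Figure D3:**
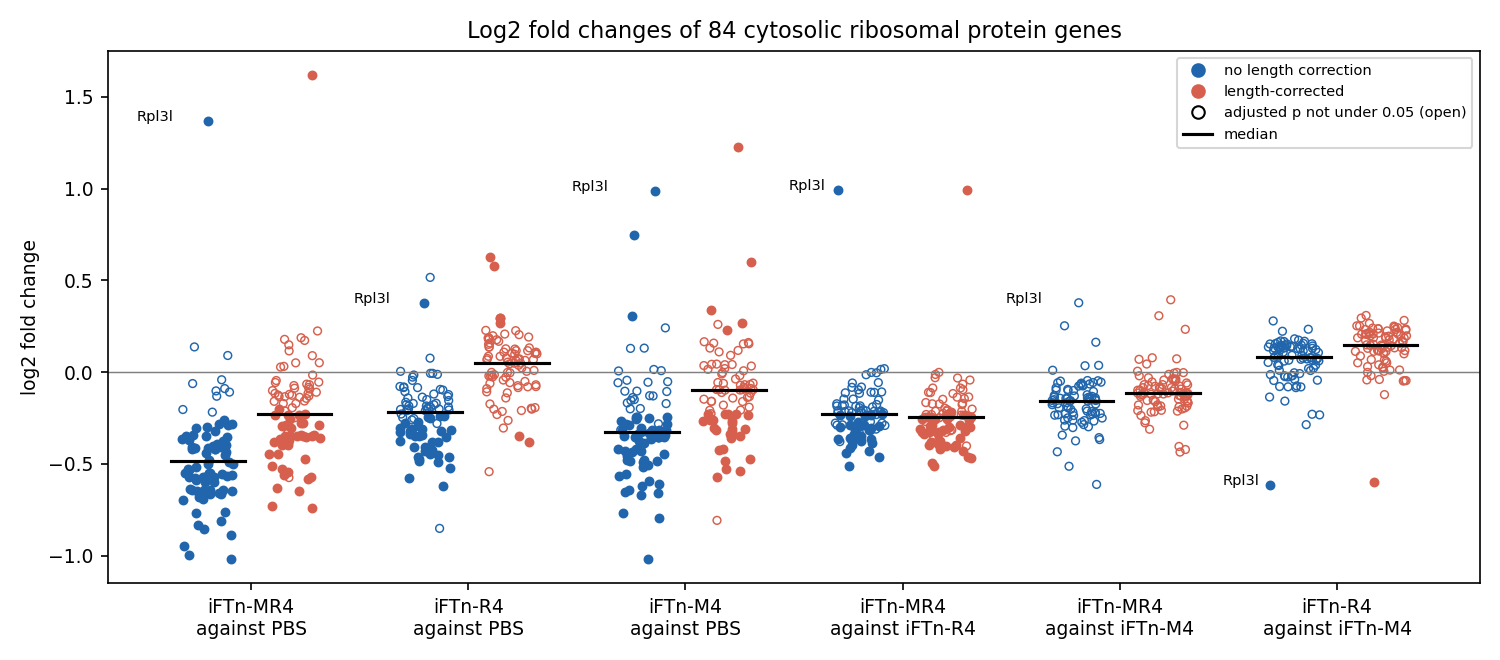
Log2 fold change of each of the 84 tested members in the 6 comparisons, without (blue) and with (red) the length correction. Filled circles have an edgeR adjusted p under 0.05, open circles do not, and lines are medians. Medians without correction are -0.48, -0.22 and -0.33 for iFTn-MR4, iFTn-R4 and iFTn-M4 against PBS; Rpl3l lies apart from the rest in most comparisons.

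By mean CPM, the order of groups was the same for most members: 57 of 84 had PBS highest, then iFTn-R4, iFTn-M4 and iFTn-MR4. After the length correction this order held for 29, and for another 23 iFTn-R4 was the highest and PBS the next, again with iFTn-MR4 the lowest. The low place of iFTn-MR4 thus appeared with both scales for most members, while the order of iFTn-R4 and PBS depended on the correction.

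Against PBS, Rpl3l ran opposite to most other members with iFTn-MR4 and iFTn-M4. With iFTn-R4 this held before the length correction only, as 49 of 84 members lay above 0 after it. It encodes the Rpl3 version of heart and skeletal muscle ribosomes, and Rpl3, its common partner, contacts the peptidyl transferase centre. Rpl3l (Entrez 66211) lies on chromosome 17 at 24727826 to 24736143 of GRCm38.p6. This member is shown because its level ran opposite to most others. The 250 bases upstream of its start, chr17:24727576-24727825 on the plus strand, are given with the matches to CANNTG in capitals.
Rpl3l upstream: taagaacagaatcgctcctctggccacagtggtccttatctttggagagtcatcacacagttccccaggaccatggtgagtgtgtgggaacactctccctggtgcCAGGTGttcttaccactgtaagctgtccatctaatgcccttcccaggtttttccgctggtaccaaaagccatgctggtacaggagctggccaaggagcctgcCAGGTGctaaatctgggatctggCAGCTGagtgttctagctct
CANNTG, the E-box letters that the myogenic factors can bind, matched at -145, -43 and -20, counted from the start, and occurred within 250 bases in 66.2% of all promoters and 47% of the members. AGATAA, letters that GATA factors can bind, matched on the minus strand at -215 and occurred in 9.99% of all promoters and 6.06% of the members. CATTCC and CTAAAAATA were not in this window on either strand.

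Rpl3l had 242 and 238 CPM with iFTn-MR4, 126 and 116 with iFTn-R4, 171 and 198 with iFTn-M4, and 84.9 and 102 with PBS. The iFTn-MR4 libraries were the highest, followed by iFTn-M4, iFTn-R4 and PBS, with no overlap between any of the groups. Rpl3 ran the opposite way with 391 and 397 CPM with iFTn-MR4, 589 and 535 with iFTn-R4, 487 and 439.6 with iFTn-M4, and 767 and 809 with PBS. Its order was PBS, iFTn-R4, iFTn-M4 and iFTn-MR4 from the highest down, again without overlap. With iFTn-MR4 the log2 fold change was 1.37 ± 0.11 for Rpl3l (edgeR adjusted p = 1.54e-05), and Rpl3 was lower (adjusted p = 3.04e-05). After the correction the log2 fold changes were 1.62 ± 0.10 for Rpl3l and -0.74 ± 0.09 for Rpl3.

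With iFTn-M4, Rpl3l was higher than in PBS, at 0.99 ± 0.11 (edgeR adjusted p = 1.46e-04), and Rpl3 was lower, at -0.77 ± 0.09 (adjusted p = 2.15e-04). With iFTn-R4 the Rpl3l difference was 0.38 ± 0.11 (edgeR adjusted p = 0.0257), a call that was lost in some runs with a single library left out. After the correction it was 0.63 and was also called higher. With single libraries left out it ranged over 0.25 to 0.51 before the correction and 0.51 to 0.75 after it. Rpl3 was lower with iFTn-R4, at -0.49 ± 0.09 (edgeR adjusted p = 0.00414). That difference did not pass after the correction, at -0.23 ± 0.09 (adjusted p = 0.102). In iFTn-MR4 against iFTn-R4, Rpl3l differed by 0.99 ± 0.10 (edgeR adjusted p = 4.04e-04) and Rpl3 by -0.51 ± 0.09 (adjusted p = 0.00328). In iFTn-MR4 against iFTn-M4 the Rpl3l value of 0.38 ± 0.10 did not pass (edgeR adjusted p = 0.128). In iFTn-R4 against iFTn-M4 Rpl3l was lower, at -0.61 ± 0.10 (edgeR adjusted p = 0.0111), with adjusted p up to 0.107 when single libraries were left out.

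**Figure D4:**
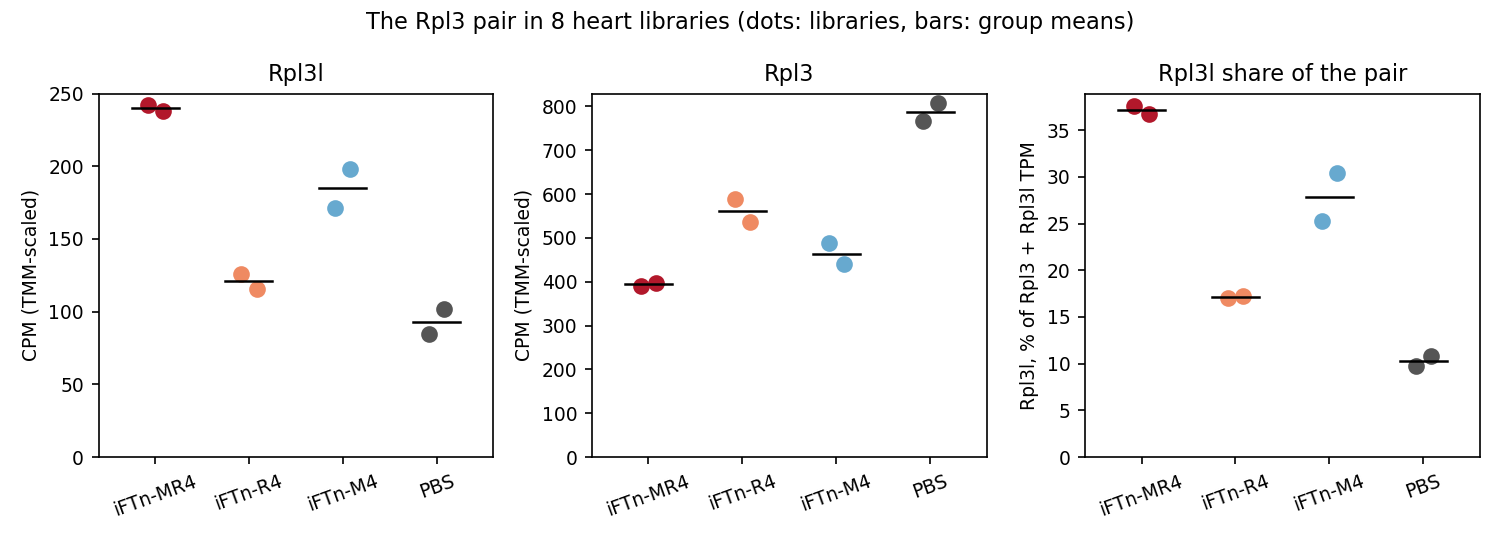
Rpl3l and Rpl3 in CPM and the Rpl3l share of their summed TPM in the 8 libraries, by group from iFTn-MR4 to PBS. Dots are libraries and bars group means. The Rpl3l share is 37.1% in iFTn-MR4, 17.1% in iFTn-R4, 27.9% in iFTn-M4 and 10.3% in PBS.

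Set per length within each library, Rpl3l made up 37.1% ± 0.572 of the summed TPM of the pair with iFTn-MR4, 17.1% ± 0.0990 with iFTn-R4, 27.9% ± 3.61 with iFTn-M4 and 10.3% ± 0.798 with PBS (SD, n = 2). A share within a library does not depend on how the 2 tables were scaled to one another. The libraries were distinct by group in this share. Rpl3l is a striated muscle gene, and the summed CPM of 8 cardiomyocyte markers also differed, at 64946 and 63653 with iFTn-MR4, 36378 and 35717 with iFTn-R4, 55638 and 58313 with iFTn-M4, and 47295 and 47847 with PBS. These sums were not corrected for the length trend. In iFTn-R4 against PBS, 5 markers were called lower and 1 higher, against 15.4% and 13.9% of all genes. Their median log2 fold change was -0.38. After the correction 2 were lower and 1 higher, against 7.9% and 6.08% of all genes, with a median of -0.10. All 8 markers were detected in every library, and the part of muscle cell content in the Rpl3l result was not tested.

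Other pairs of related genes were also examined, with log2 fold changes given here without the length correction. Rpl22l1, a relative of Rpl22, was lower with iFTn-MR4 than with PBS, at -0.81 ± 0.11 (edgeR adjusted p = 3.18e-04), while Rpl22 was -0.11 ± 0.08 and did not pass (adjusted p = 0.286). The Rpl22l1 share of the summed TPM of that pair was 67.2% ± 0.509 with iFTn-MR4, 71.9% ± 0.659 with iFTn-R4, 69.2% ± 1.76 with iFTn-M4 and 78.1% ± 0.314 with PBS (SD, n = 2). Pair shares were not corrected for the length trend, and effective lengths were 178 bases for Rpl22l1 and 1891 for Rpl22. Rps27l, a p53-responsive relative of Rps27, was lower with iFTn-MR4 than with PBS, at -0.65 ± 0.08, with a share of 6.69% ± 1.03, against 10.1% ± 0.626 with PBS. Rps27 has split counts, which makes that share uncertain. Rpl7l1, a relative of Rpl7, had -0.64 ± 0.10 with iFTn-MR4, and Rpl7 had -0.35 ± 0.08. In length-corrected CPM, Rpl7 had 543 and 579 with iFTn-MR4 and 576.5 and 590 with PBS, so the groups overlapped. On that scale Rpl7l1 had 56.7 and 63.5 against 84.5 and 88.7 with PBS. Rpl22l1 had 32.8 and 32.7 against 50.1 and 47.4, and Rps27l had 44.65 and 52.8 against 65.9 and 62.2. Rpl22 had 173 and 166 against 160 and 168. Rpl39l never rose above 6 expected counts in a library, and Rpl39 was lower with iFTn-MR4, at -0.57 ± 0.13 (edgeR adjusted p = 0.00601).

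Genes that build ribosomes were lower as well. Of 60 ribosome assembly factors, 52 were lower than in PBS with iFTn-MR4, 33 with iFTn-R4 and 49 with iFTn-M4. Of all genes, 26.3%, 15.4% and 21.4% were called lower. The medians of the factors were -0.65, -0.36 and -0.60. After the length correction 47, 21 and 48 were lower, against 23.9%, 7.9% and 17.7% of all genes, with medians of -0.56, -0.30 and -0.56. Nop16, a nucleolar factor for the large subunit, had 16.7 and 17.6 CPM with iFTn-MR4, 27.9 and 26.9 with iFTn-R4, 21.9 and 20.3 with iFTn-M4, and 35.5 and 37.9 with PBS. For iFTn-MR4 against PBS that is a log2 fold change of -1.10 ± 0.09 without the correction (edgeR adjusted p = 2.35e-05). Bysl and Fbl, which work on the small subunit and on methylation of ribosomal RNA, were lower with iFTn-MR4, at -0.88 ± 0.08 and -1.08 ± 0.10. In iFTn-MR4 against iFTn-R4, 26 of 60 were lower and 1 higher, against 14.6% and 12.6% of all genes, with a median of -0.33. In iFTn-R4 against iFTn-M4 8 were higher and 0 lower, against 3.43% and 2.5% of all genes.

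Other parts of the translation machinery moved less evenly. Of 51 translation factors, 28 were lower and 7 higher with iFTn-MR4, 23 and 4 with iFTn-R4, and 25 and 5 with iFTn-M4. Of all genes, 26.3%, 15.4% and 21.4% were called lower and 24.6%, 13.9% and 19.8% higher. After the correction 22, 6 and 17 were lower, against 23.9%, 7.9% and 17.7% of all genes. Higher were 6, 5 and 7, against 20.7%, 6.08% and 15.2% of all genes. Eif5a, which helps ribosomes past difficult peptide bonds, was lower with iFTn-MR4, at -0.84 ± 0.08 (edgeR adjusted p = 3.54e-05). Eef1a1, the elongation factor that brings in aminoacyl-tRNA, differed by -0.55 ± 0.09 in iFTn-MR4 against iFTn-R4 (edgeR adjusted p = 0.00233). Of 17 genes of RNA polymerase I and its factors, which transcribe ribosomal RNA, 5 were lower and 2 higher with iFTn-MR4. Of all genes, 26.3% were lower and 24.6% higher, so the uncorrected share called lower was near that of all genes. After the correction 2 were lower and 2 higher, against 23.9% and 20.7% of all genes.

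Among 25 genes of mTORC1 and translation control, 5 were lower and 8 higher with iFTn-MR4 than with PBS, without and with the correction, against 26.3% of all genes called lower and 24.6% called higher before it. As a list they did not stand far from those shares. Myc, a transcription factor that drives ribosome production, had 7.41 and 8.46 CPM with iFTn-MR4, 23.9 and 23.7 with iFTn-R4, 11.3 and 13.5 with iFTn-M4, and 36.9 and 40.0 with PBS. The iFTn-MR4 libraries were the lowest and the PBS libraries the highest. The order of the 4 groups was that of 57 of 84 members before the length correction and of 29 after it. Whether Myc bears on the ribosomal protein genes was not tested. Without the length correction, the log2 fold change of Myc was -2.28 ± 0.12 with iFTn-MR4 (edgeR adjusted p = 3.42e-06), -0.69 ± 0.11 with iFTn-R4 and -1.63 ± 0.11 with iFTn-M4. Sesn1 and Deptor, both restraints on mTORC1, were higher with iFTn-MR4, at 1.11 ± 0.09 and 1.09 ± 0.11.

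**Figure D5:**
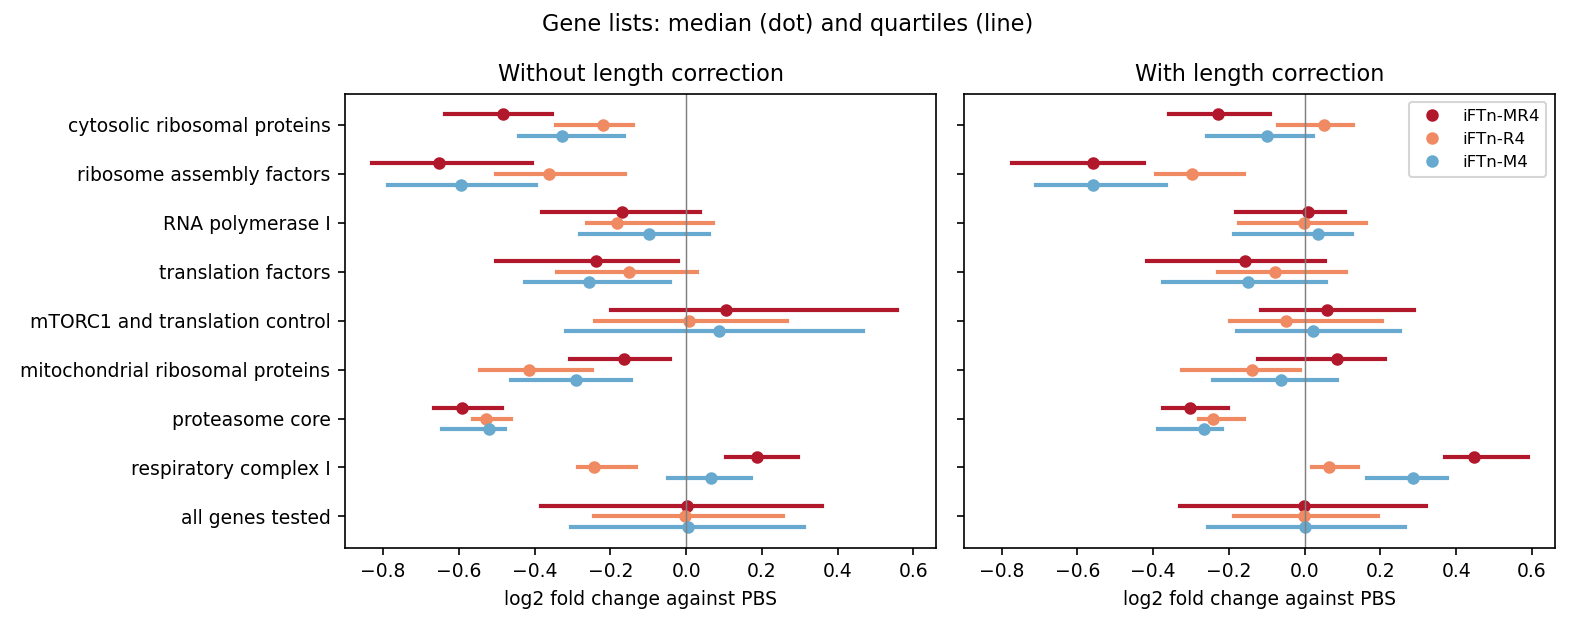
Median (dot) and quartiles (line) of log2 fold changes against PBS in the cytosolic ribosomal protein genes and related lists, for iFTn-MR4, iFTn-R4 and iFTn-M4, without (left) and with (right) the length correction. Ribosome assembly factors had medians of -0.65, -0.36 and -0.60 before and -0.56, -0.30 and -0.56 after the correction.

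Against PBS, mitochondrial ribosomal proteins also had medians below 0 before the correction. Of 78 such genes, 28 were lower and 1 higher with iFTn-MR4, 55 and 0 with iFTn-R4 and 38 and 0 with iFTn-M4. Of all genes, 26.3%, 15.4% and 21.4% were called lower and 24.6%, 13.9% and 19.8% higher. The medians of the 78 were -0.16, -0.41 and -0.29. After the correction 9 were lower and 18 higher with iFTn-MR4, against 23.9% and 20.7% of all genes, 18 and 1 with iFTn-R4, against 7.9% and 6.08%, and 19 and 7 with iFTn-M4, against 17.7% and 15.2%. In iFTn-MR4 against iFTn-R4, 29 of those 78 were higher, against 12.6% of all genes, and 0 lower, with a median of 0.23, so in that comparison the mitochondrial and cytosolic ribosomal proteins had medians of opposite sign. The 14 genes of the proteasome core, with a median effective length of 664 bases, were all called lower against PBS with each nanocage. After the correction 10 were lower with iFTn-MR4, 4 with iFTn-R4 and 8 with iFTn-M4, against 23.9%, 7.9% and 17.7% of all genes. Respiratory complex I genes were higher in iFTn-MR4 against iFTn-R4, 32 of 38, against 12.6% of all genes, with a median of 0.39. The difference between the lists was not tested.

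Cell type markers also differed between the groups, in sums of CPM without the length correction. Neutrophil markers, 6 genes, summed to 45.1 and 49.5 CPM with iFTn-MR4, 175 and 122 with iFTn-R4, 77.6 and 43.8 with iFTn-M4, and 225 and 159 with PBS. The 8 fibroblast markers summed to 7650 and 6557 CPM with iFTn-MR4, 9187 and 6676 with iFTn-R4, 10259 and 8602 with iFTn-M4, and 5540 and 5327 with PBS. The 8 macrophage markers summed to 2165 and 2155 CPM with iFTn-MR4, 1768 and 1818 with iFTn-R4, 2679 and 2504 with iFTn-M4, and 2620 and 1723 with PBS. The neutrophil sums of iFTn-MR4 lay below those of PBS without overlap, the fibroblast sums above them, and the macrophage sums within their range. Single macrophage markers were split, with 2 called higher and 3 lower, against 24.6% and 26.3% of all genes. After the correction 2 were higher and 2 lower, against 20.7% and 23.9%. Endothelial markers, 7 genes, summed to 1864 and 1951 CPM with iFTn-MR4, against 1324 and 1486 with PBS. Smooth muscle and pericyte markers, 6 genes, summed to 1124 and 1420 CPM with iFTn-MR4, against 964 and 968 with PBS. Singly these too were split, with 3 above and 3 below 0. Of the 6, 2 were called higher and 1 lower, and 2 and 2 after the correction. The 5 erythroid markers varied within a group, with 1116 and 319 CPM in iFTn-MR4, against 853 and 634 in PBS. T and B cell markers summed to 4.2 to 8.3 CPM, with Cd3d and Cd3e at 0 in at least 1 library. The part of these cells in the ribosomal protein values was not tested.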

How the data were processed

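RNA was enriched with oligo-dT beads and sequenced as DNA nanoballs, as the labels' protocols state. HISAT2 2.1.0, Bowtie2 2.2.5 and RSEM 1.2.8 and build GRCm38.p6 are named, per the submitters' processing notes. The authors deposited an expected count per gene, estimated with RSEM per the submitters' processing notes, which hold fractions where reads fit several copies. The authors also deposited FPKM values, scaled by length and depth, and TPM values, scaled to a fixed sum. Whether counting used strand is not given in the sources used here.

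After rounding to whole numbers, counts entered edgeR 4.0.16 under R 4.3.3 (filterByExpr, TMM, quasi-likelihood test, all 8 libraries in 1 fit). P-values are 2-sided, with Benjamini-Hochberg adjustment over 13953 genes and a threshold of 0.05. The common biological coefficient of variation was 8.47%, with 4 residual degrees of freedom. CPM are on TMM-scaled library sizes. Effective lengths were derived by dividing counts by FPKM. The length correction was a natural spline of log2 length, 4 degrees of freedom, fitted to the log2 counts of genes averaging at least 50 counts and used as an offset. Were a change to follow length across genes, the correction would remove it too. Scripts were tested on simulated data. DESeq2 1.42.0 and limma 3.58.1 on log2(TPM + 1) were alternatives.

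Members and gene lists were chosen with earlier results of these data known. Named members are up to 5 per comparison and direction with the lowest adjusted p, at least 10 TPM in the higher group, the 3 highest and 3 lowest by mean TPM, related pairs and the stalk genes. Rps4l and Rpl10l are not in both tables. Of other lists, up to 3 genes with the lowest adjusted p in a comparison could be named. Sequences are from RefSeq. Rpl13a, Rps14, the proteasome sentence and the further members shown by sequence, corrected call or missing call were chosen after their values were seen.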

Additional observations from a re-analysis of the deposited data

How the results depend on the processing

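The median of the members stayed negative for iFTn-MR4 and iFTn-M4 against PBS and for iFTn-MR4 against iFTn-R4 in every alternative run. For iFTn-R4 against PBS it was -0.22, and 0.052 with the length offset as a spline and 0.046 as deciles. With length deciles the counts of lower members against PBS were 39, 2 and 20 for iFTn-MR4, iFTn-R4 and iFTn-M4, the medians -0.23, 0.046 and -0.11, and the higher members 2, 6 and 7. With the spline they were 41, 2 and 26 lower, 1, 5 and 5 higher, with medians of -0.23, 0.052 and -0.10.

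Fitting only the groups compared gave 17 members lower and 0 higher for iFTn-R4 against PBS, where 1266 and 1262 of all genes were. It gave 15 lower for iFTn-MR4 against iFTn-R4, where 1465 of all genes were. For iFTn-MR4 against iFTn-M4 it gave 4 lower and 1 higher, where 479 and 235 of all genes were. The TPM scale gave 9 lower and 2 higher for iFTn-R4 against PBS, where 660 and 4503 of all genes were. It gave 62 lower for iFTn-MR4 against iFTn-R4, where 2818 of all genes were. Library size alone gave 2 higher for iFTn-R4 against PBS, where 2490 of all genes were. It gave 62 lower for iFTn-MR4 against iFTn-R4, where 2850 of all genes were. DESeq2 gave 2 higher for iFTn-R4 against PBS, where 1387 of all genes were. It gave 4 lower and 1 higher for iFTn-MR4 against iFTn-M4, where 271 and 82 of all genes were. Without a filter on low counts 2 were higher for iFTn-MR4 against PBS, where 3362 of all genes were. The cause of these changes was not tested.

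With single libraries left out, lower members ranged over 59 to 75, 12 to 37 and 30 to 59 for iFTn-MR4, iFTn-R4 and iFTn-M4 against PBS, and over 22 to 44, 0 to 5 and 7 to 30 with the length offset. Higher members ranged over 1 to 2, 0 to 2 and 1 to 4, and over 1 to 2, 1 to 3 and 1 to 6 with it. For iFTn-MR4 against iFTn-R4 lower members ranged over 5 to 28, and 13 to 39 with the offset, with 1 higher throughout. For iFTn-MR4 against iFTn-M4 they ranged over 0 to 3 in both, with 0 higher, and 0 to 1 with the offset. For iFTn-R4 against iFTn-M4 0 to 1 were lower in both, and 0 to 1 higher, or 0 to 4 with the offset.

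Deviations of same-numbered libraries from their group means correlated at -0.01 to 0.15, so the replicate numbers were not taken to pair libraries. With the replicate block 1 member was lower for iFTn-MR4 against iFTn-M4, without and with the length offset, and 58, 37 and 73 were lower for iFTn-M4, iFTn-R4 and iFTn-MR4 against PBS.

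Among named members under the alternatives, 1766 log2 fold changes kept direction and side of the threshold, 111 lost the call, 34 gained it and 72 changed sign. Of the 72, 69 passed the threshold neither before nor after. The other 3 were Rpl22 in iFTn-R4 against PBS on the TPM scale, at 0.24, and Rps4x in iFTn-MR4 against PBS with the length offset, at 0.031 as a spline and 0.013 as deciles. With the offset as a spline and as deciles, the values for iFTn-R4 against PBS became 0.12 and 0.086 for Rpl22, 0.12 and 0.15 for Rpl36a, 0.10 and 0.17 for Rpl39, 0.17 and 0.16 for Rpl7, 0.065 and 0.043 for Rplp0, 0.078 and 0.12 for Rplp1, and 0.23 and 0.23 for Rps4x. Likewise Rpl22 became 0.051 and 0.011 in iFTn-MR4 against PBS, Rpl39 0.040 and 0.18 in iFTn-M4 against PBS, Rps27 -0.013 and -0.014 in iFTn-MR4 against iFTn-R4, and Rplp1 0.088 and 0.025 in iFTn-R4 against iFTn-M4. With the spline alone Rpl39 and Rplp2 became 0.059 and 0.051 in iFTn-R4 against iFTn-M4, and with deciles alone Rplp1 became 0.094 in iFTn-M4 against PBS.

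On the TPM scale Rpl7, Rplp0 and Rps4x became 0.084, 0.056 and 0.15 in iFTn-R4 against PBS, Rpl22 0.033 in iFTn-MR4 against PBS, and Rps27 -0.00603 in iFTn-MR4 against iFTn-R4. Rpl22, Rpl39, Rplp1, Rplp2 and Rps4x became 0.054, 0.069, 0.098, 0.059 and 0.0078 in iFTn-R4 against iFTn-M4. By library size alone Rpl22 became 0.050 in iFTn-R4 against PBS, Rpl7l1 -0.0079 in iFTn-MR4 against iFTn-M4, Rps27 -0.078 in iFTn-MR4 against iFTn-R4, and Rpl22 and Rplp1 0.021 and 0.0024 in iFTn-R4 against iFTn-M4. Fitting only the groups compared gave -0.0046 for Rps4x in iFTn-M4 against PBS and 0.0024 for Rpl22 in iFTn-R4 against PBS.

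With single libraries left out, values in iFTn-MR4 against PBS ranged over -0.030 to 0.22 for Rps27. In iFTn-R4 against PBS they ranged over -0.11 to 0.056 for Rpl22 and -0.031 to 0.16 for Rps27. In iFTn-M4 against PBS they ranged over -0.040 to 0.055 for Rpl22, -0.23 to 0.094 for Rpl39, -0.34 to 0.031 for Rplp1 and -0.084 to 0.079 for Rps4x. In iFTn-MR4 against iFTn-R4 they ranged over -0.22 to 0.012 for Rplp2 and -0.12 to 0.12 for Rps27, and in iFTn-MR4 against iFTn-M4 over -0.047 to 0.12 for Rpl7l1. In iFTn-R4 against iFTn-M4 they ranged over -0.11 to 0.047 for Rpl22, -0.048 to 0.28 for Rpl22l1, -0.033 to 0.31 for Rpl36a, -0.23 to 0.089 for Rpl39, -0.22 to 0.15 for Rplp1 and -0.20 to 0.032 for Rplp2. With 2 libraries a group, modest differences may be missed, and the shortest members had few effective positions.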
